A study of Mus musculus with 12 samples.

Results

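The miRNAs described here were the mouse assays of the array that gave no signal in lung endothelial cells under any condition. They were chosen by their measured threshold cycle (Ct), the PCR cycle at which a well's fluorescence crosses the threshold, and an assay was counted as silent when its Ct was listed at 40 on all 12 arrays. 40 was the number of PCR cycles run and the value deposited for a well that never reached the threshold. 45 of the 335 mouse assays met this rule, which was 13.4%, and they named 42 different miRNA genes. The choice used every array, so the silence itself is a description and was not tested.

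The study asked which endothelial miRNAs respond to the cytosolic peptidoglycan receptors NOD1 and NOD2. Endothelial cells were isolated from the lungs of wild type male C57BL/6N mice aged 6 to 10 weeks with magnetic beads against CD144 and CD31, pooling 3 mice per isolation. After 2 h of starvation in low serum, the cells stayed unstimulated (control) or were stimulated for 6 h with 10 μg/mL of Tri-DAP, a NOD1 ligand labelled TD, or 10 μg/mL of MDP, a NOD2 ligand. Each group had 4 arrays, from 4 isolations per condition according to the methods, and each array is named below by its group and the number in its label. No group carried a genetic change, and the cells were a bead-selected primary population, not a line. The array was a TaqMan low-density array, a card of 384 wells with a separate stem-loop PCR assay in each. 375 of them were miRNA assays, 335 named for mouse and 40 for rat.

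miRNAs are short RNAs that pair with target mRNAs mainly through their seed, bases 2 to 8 from the 5′ end. Many are made only in certain cells. The miR-290 to miR-295 and miR-302/miR-367 clusters mark pluripotent cells, a large cluster on chromosome X is read in testis and sperm precursors, miR-216a, miR-216b and miR-217 mark exocrine pancreas, miR-122 marks hepatocytes, and miR-153 and miR-488 are known from neurons. miR-126, which lies in an intron of Egfl7, is the classical endothelial miRNA.

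Mature sequences are given for part of the silent embryonic and testis assays, to show which of these share a seed. A few silent assays of other tissues are added. They are from RefSeq (GRCm38.p6), written 5′ to 3′ with the seed in capitals. 19 of the 45 silent assays matched a mature sequence by name and 2 through the only arm listed, although their array names give no arm. For 21 others the array name gives no arm and both arms are listed, and no sequence was used for the other 3. Of the embryonic assays, miR-291a-3p carries the seed of the pluripotency family. The array names of miR-302c and miR-302d give no arm, so the arm printed is 1 of the possible targets, and the seed of miR-302c-3p is the same motif shifted by a base.
miR-291a-3p: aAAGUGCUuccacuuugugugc
miR-302d-3p: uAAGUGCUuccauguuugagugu
miR-302c-3p: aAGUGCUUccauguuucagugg
miR-291b-5p: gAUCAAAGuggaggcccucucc

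The X-linked testis assays named by arm are shown because 2 of them, miR-883a-3p and miR-883b-3p, share a seed. The opposite arms of miR-743b and of miR-883a were also both silent. The array names of the silent miR-201, miR-742 and miR-871 give no arm, and these are not printed. The 5p arm of miR-871 has the same seed as the 5p arm of miR-743a.
miR-883a-3p: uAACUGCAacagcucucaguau
miR-883b-3p: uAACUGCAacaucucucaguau
miR-883a-5p: uGCUGAGAgaaguagcaguuac
miR-743b-3p: gAAAGACAucaugcugaauaga
miR-743b-5p: uGUUCAGAcugguguccauca
miR-878-5p: uAUCUAGUuggaugucaagaca
miR-509-5p: uACUCCAGaauguggcaaucau

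The pancreatic and neural assays are shown as the remaining tissue sets with several silent members, each with 1 of its possible arms except miR-384-3p, which the array names by arm. The arms of miR-876, which is in no tissue list, are shown because both were silent.
miR-216a-5p: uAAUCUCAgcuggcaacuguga
miR-216b-5p: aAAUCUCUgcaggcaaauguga
miR-217-5p: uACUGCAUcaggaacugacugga
miR-153-3p: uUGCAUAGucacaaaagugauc
miR-488-3p: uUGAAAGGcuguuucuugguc
miR-384-3p: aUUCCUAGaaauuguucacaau
miR-876-5p: uGGAUUUCucugugaaucacua
miR-876-3p: uAGUGGUUuacaaaguaauuca

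The cells behind the silent wells carried endothelial RNA on every array. miR-126-3p had a Ct of 18.6 to 20.6 and miR-126-5p of 20.1 to 22.4 across the 12 arrays, with means of 19.7 and 21.3. A lower Ct means more RNA, and each cycle is about a doubling. Markers of other cells were measured as well. Of the epithelial list, miR-203 and miR-429 were on all 12 arrays, miR-141 and the 3 miR-200 assays on 10 or 11, and miR-205 on 1. Of the blood cell list, miR-155, which activated endothelial cells are also known to make, was on all 12 arrays at a mean Ct of 25.4, miR-150 and miR-223 were also on all 12, miR-142-3p on 9, miR-451 on 3 and miR-142-5p on 2. No marker of these lists was among the silent assays, and the part of such cells in the detected or silent sets was not tested. In bulk RNA, fewer cells of a type and less RNA per cell cannot be told apart.

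The number of arrays on which an assay was measured was split between the extremes. 166 mouse assays were measured on all 12 arrays and 45 on none, while 17 were measured on 1, 18 on 2 and 14 on 3. The silent assays took up 540 of the 4020 wells for mouse miRNAs and accounted for 41.5% of the 1300 undetermined ones. Undetermined wells were most frequent among late assays. They made up 9.43% of the wells of assays with a mean measured Ct of 30 to 32, 30.03% at 32 to 34 and 55.9% after 34. Among earlier assays the share did not follow Ct, with 6.17% at 25 to 28 and 9.67% at 28 to 30 but 19.9% up to 25. Of the 31 assays up to 25, however, 23 were measured on all 12 arrays. Another 4 were on 1 array, so that a single early well set their mean Ct. The latest measured Ct of an array was between 36.7 and 39.7, and 165 of the 2720 measured wells lay after Ct 35. The plant assay ath-miR159a, the array's negative control, was measured on 0 arrays. The data hold no sample in which the silent assays were measured, so an absent miRNA and an assay that did not work cannot be told apart.

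**Figure D1:**
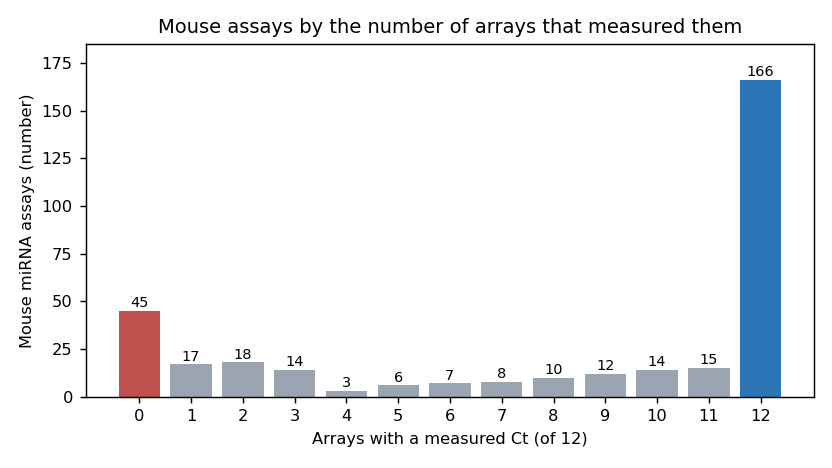
Number of mouse miRNA assays (y axis) by the number of arrays on which each had a measured Ct (x axis, 0 to 12). The red bar holds the 45 silent assays, the blue bar the 166 measured on all 12 arrays, and the grey bars the assays in between, with 3 assays at the lowest point.

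The silent assays carry no level in any sample. Their deposited normalized value is 40 less the array's average for U6, the small nuclear RNA used as reference, and it was the same for all 45 assays of an array. On the control arrays 4, 7, 10 and 13 it was 20.2, 19.96, 20.7 and 20.6 cycles. On the Tri-DAP arrays 5, 8, 11 and 14 it was 20.3, 18.4, 21.4 and 21.7, and on the MDP arrays 6, 9, 12 and 15 it was 19.8, 19.99, 21.3 and 20.3. These numbers follow U6 alone. The group means were 20.4 ± 0.36 for control, 20.5 ± 1.51 for Tri-DAP and 20.3 ± 0.67 for MDP (SD, n = 4), and a difference between them is no change of a silent miRNA.

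Grouping by family, cluster and tissue placed 30 of the 45 silent assays in a list and 15 in none. The lists were chosen with earlier results known and do not cover all mouse assays. The 30 is thus no measure of enrichment, and none was tested. The X-linked testis list held the most silent assays, 10 of 19. The Dlk1-Dio3 imprinted cluster followed with 7 of 47, and the miR-290 to miR-295 cluster, the neural list and the pancreas and endocrine list with 3 each, of 7, 17 and 5. 2 of the 5 miR-302/miR-367 assays were silent, as were the only liver assay and 1 of 6 assays for other gonadal miRNAs. Across all mouse assays the share was 13.4%. None of the assays for muscle, epithelium, blood cells, sensory organs, retina, intestine and kidney, or of the miR-106a to miR-363 cluster and the Sfmbt2 intron group, was silent on all 12 arrays. Some of these zeros rested on a single array, since 1 epithelial and 1 Sfmbt2 assay was silent without Tri-DAP array 5 and 1 muscle assay without control array 13 or Tri-DAP array 8. Tissue restriction and silence thus did not coincide for every list. The muscle list had no assay on all 12 arrays, with 2 of 6 on a single array.

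**Figure D2:**
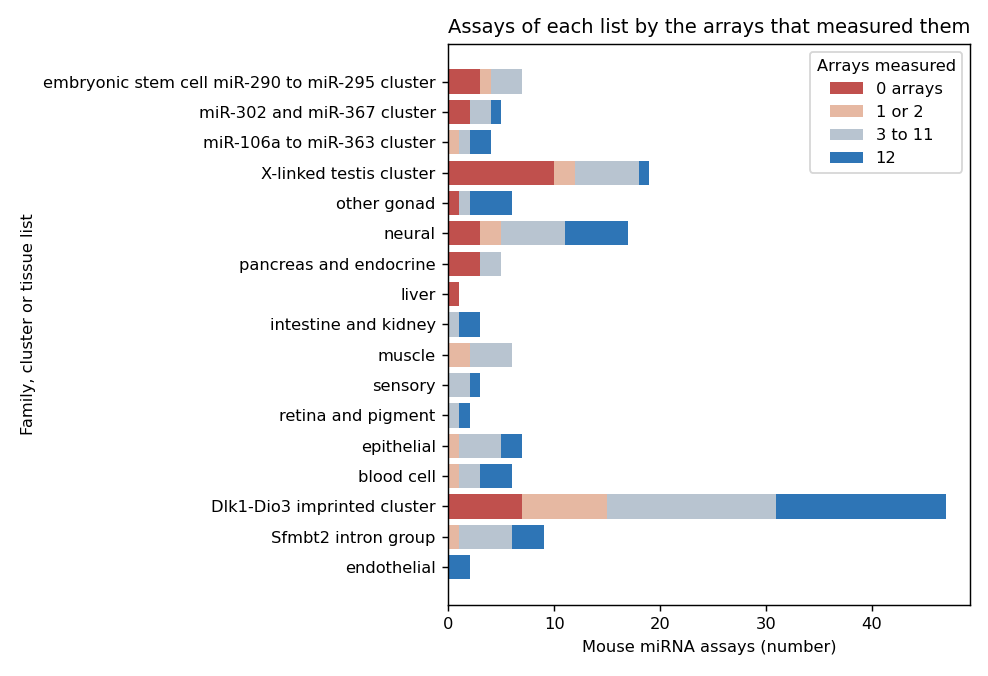
Number of mouse assays in each family, cluster or tissue list (x axis), split by the number of arrays that measured them: 0 (red), 1 or 2 (light red), 3 to 11 (grey) and 12 (blue). The X-linked testis list has 10 of 19 assays in red, and both endothelial assays are blue.

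Of the miR-290 to miR-295 cluster, the main miRNA cluster of mouse embryonic stem cells, no assay was measured on all 12 arrays. miR-290-3p, miR-291a-3p and miR-291b-5p were silent. miR-295 was measured only on Tri-DAP array 11, at Ct 35.4. miR-292-3p was measured on 1 array of each group, at 34.2 to 35.4, and miR-294 on control arrays 4 and 10 and Tri-DAP array 14, at 34.7 to 35.4. miR-293 was also measured on 1 array of each group and was earlier, at 24.7 on MDP array 9, 29.5 on control array 7 and 31.9 on Tri-DAP array 14. The cluster was thus undetermined in most wells of every group, and no array measured more than 2 of its 7 assays.

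The miR-302/miR-367 cluster, an embryonic cluster within the span of Larp7 on chromosome 3, was mixed. miR-302c and miR-302d were silent, miR-302b was measured on control array 4 and MDP arrays 6 and 12, at 34.2 to 35.5, and miR-302a on 7 arrays, at 29.3 to 38.4. miR-367, from the same primary transcript but with an unrelated seed, was measured on all 12 arrays, at 27.7 to 36.7. The miR-302/miR-367 assays thus ranged from silent to measured on every array. The seed AAGUGCU, which the miR-290 and miR-302 families share, was found for an arm that the names of 5 mouse assays allow, in the sequences used. 2 of these, miR-291a-3p and miR-302d, were silent, miR-295 was on 1 array, and miR-294 and miR-302b were on 3 each. miR-302a, on 7 arrays, could not be judged for this seed. Its array name gives no arm, and only its 5p arm was listed.

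The X-linked testis list covers a group of quickly evolving miRNAs that are mainly read in male germ cells. Its silent members were miR-201, miR-509-5p, miR-742, miR-743b-3p, miR-743b-5p, miR-871, miR-878-5p, miR-883a-3p, miR-883b-3p and miR-883a-5p. 8 of these came from 1 run of miRNA genes on chromosome X, in which each gene lies within 10 kb of the next and which has 15 assays on the array. No assay of that run was measured on all 12 arrays. miR-465a-5p came closest, with 7 arrays at Ct 25.01 to 29.4, among them all 4 MDP arrays, 2 control arrays and 1 Tri-DAP array. miR-741 was on 6 arrays at 32.2 to 35.4, miR-743a on 4 at 27.6 to 31.9, and miR-470 and miR-465b-5p on 3 each. miR-465a-3p was on 1 array, although its opposite arm was on 7.

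Close relatives split in the same run. miR-743b-3p shares the seed AAAGACA with the 3p arm of miR-743a, whose array name gives no arm, and neither arm of miR-743b was measured while miR-743a was on 4 arrays. miR-881 was measured on 2, at Ct 28.8 on MDP array 6 and at 7.09 on control array 13, which is earlier than the U6 mean of 19.4 on that array. Outside the run, miR-201 was silent while miR-547, its neighbor on chromosome X, was on 7 arrays at 28.5 to 34.6. miR-509-5p was silent while miR-509-3p was on all 12 at 27.5 to 32.8.

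**Figure D3:**
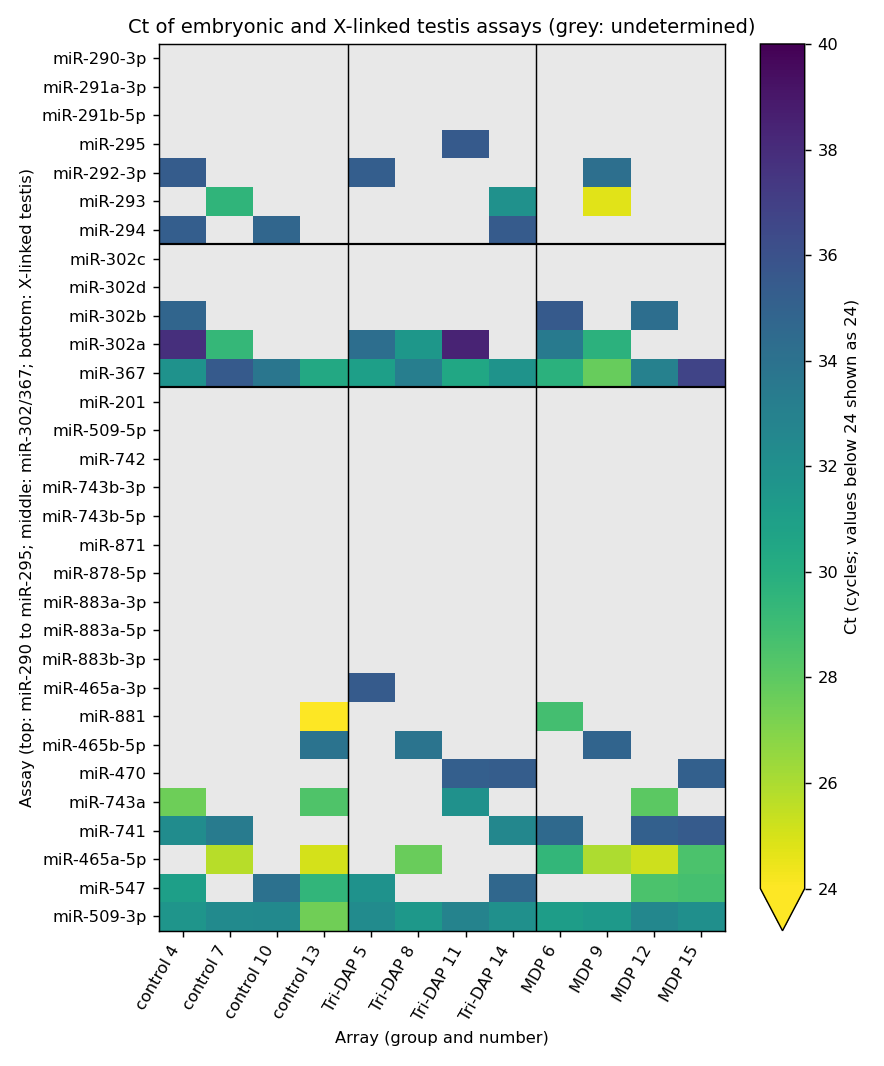
Ct (color scale, in cycles; grey is undetermined) of each assay of the miR-290 to miR-295 cluster (top), the miR-302/miR-367 cluster (middle) and the X-linked testis list (bottom) on the 12 arrays (columns, 4 per group). The 3, 2 and 10 silent assays are the fully grey rows of the blocks, and miR-367 and miR-509-3p are measured in every column.

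The pancreas and endocrine list had no assay on all 12 arrays. miR-216a, miR-216b and miR-217, which lie close together on chromosome 11 and are enriched in the exocrine pancreas, were all silent. miR-7a, an islet miRNA, was on 10 arrays at Ct 32.3 to 36.3. miR-375, also of islets and of some epithelia, was on 6 arrays, with 1 control, 4 Tri-DAP and 1 MDP array. miR-122, the main hepatocyte miRNA, was silent. miR-192 and miR-194, which are known from intestine and kidney as well as liver, were measured on all 12 arrays, at mean Ct 30.5 and 31.0. miR-202-5p, a gonadal miRNA, was silent while miR-202-3p was measured on all 12 at 31.96 to 35.4.

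The neural list was mostly measured. miR-153, miR-384-3p and miR-488 were silent, and 6 of the 17 assays were on all 12 arrays. These were miR-9, miR-124, miR-128a, miR-129-3p, miR-132 and miR-138, with mean Ct from 27.3 for miR-138 to 33.1 for miR-128a. miR-124, the most abundant miRNA of neurons, was measured at 25.9 to 33.7. miR-219, an oligodendrocyte miRNA, was on 2 arrays. The silent miR-153 lies within the span of Ptprn2, a gene of neuroendocrine secretory granules, and miR-488 within Astn1, a neuronal adhesion gene. miR-384-5p, the arm opposite the silent miR-384-3p, was on 8 arrays at 30.9 to 39.3.

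The Dlk1-Dio3 region of chromosome 12 holds a large imprinted miRNA group of the mouse, read from the maternal allele. miR-154, miR-377, miR-453, miR-540-5p, miR-654-5p, miR-668 and miR-679 were silent. 16 of the 47 assays were on all 12 arrays, with miR-494 and miR-431 the earliest at mean Ct 27.6 and 28.4, and 8 were on 1 or 2. Silent and fully measured assays stood within the same genomic run. The larger run of 33 assays held 6 silent ones and 11 measured on all 12 arrays, and the smaller run of 13 held 1 and 5. The arms opposite the silent miR-540-5p and miR-654-5p were seldom measured. miR-540-3p was on 2 arrays, control array 13 and Tri-DAP array 14, and miR-654-3p on Tri-DAP arrays 5 and 14.

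15 silent assays were in no list. They were miR-325, miR-330, miR-346, miR-464, miR-468, miR-504, miR-505, miR-615-3p, miR-670, miR-683, miR-686, miR-802, miR-876-3p, miR-876-5p and miR-879. Several lie within the span of protein-coding genes, with miR-346 in Grid1, a glutamate receptor gene, both arms of miR-876 in Lingo2, miR-504 in Fgf13, miR-330 in Eml2 and miR-615-3p in Hoxc5. In all, 16 of the 45 silent assays lay within such a span, those of miR-153, miR-488, miR-302c and miR-302d included. Spans were assigned without regard to strand. The share over all mouse assays was not counted, and measured assays lay in such spans too, as miR-126 does in Egfl7. The 16 is thus no trait of the silent assays.

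By position, 43 silent assays had 1 locus. miR-683 had several and miR-464 had none in the table used. Chromosome X carried 14 silent assays of 52, or 26.9%, and chromosome 7, with the miR-290 to miR-295 cluster, 5 of 18, or 27.8%. Chromosome 12 carried 8 of 53, or 15.1%, against 14.8% over the 291 assays with 1 locus. Neighboring miRNAs of a cluster are often cut from 1 transcript, so these assays are not independent of each other. The 19 silent sequences matched by name had a median length of 22 bases and a median GC content of 45.5% (27.3 to 63.6%). By the same match, the median GC content was 52.2% for 35 assays measured on 1 to 11 arrays and 54.55% for 36 measured on all 12, and the ranges overlapped.

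Rat assays on the same card gave a further reading for 7 of the silent mouse miRNA genes. The assays for rat miR-377 and miR-742 were undetermined on all 12 arrays. Rat miR-346 was measured on 5 arrays at Ct 32.1 to 36.5, on 2 control, 2 Tri-DAP and 1 MDP array. Rat miR-871 was on 3 arrays at 28.7 to 38.8, miR-878 on 2 at 34.2 and 37.8, miR-505 on MDP arrays 9 and 15 at 35.5 on each, and miR-743b on MDP array 6 at 32.8. 10 of the 40 rat assays were silent. How far a rat assay reads the mouse miRNA was not tested.

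The comparison with the ligands asked whether assays silent on the control arrays were measured after stimulation. None of them was measured on all arrays of a ligand. The control arrays measured 232, 223, 216 and 235 of the 335 mouse assays, the Tri-DAP arrays 227, 216, 225 and 232, and the MDP arrays 235, 225, 223 and 231. The 3 groups overlapped throughout. The means were 226.5 ± 8.66, 225 ± 6.68 and 228.5 ± 5.51 (SD, n = 4). Tri-DAP differed from control by -1.5 assays (two-sided exact permutation test, p = 0.886) and MDP by 2.0 (p = 0.8, exact permutation), with an adjusted p of 0.886 for both. No split of 4 arrays from 4 can give an exact p under 0.029. The sign of the Tri-DAP difference turned when control array 4, control array 13 or Tri-DAP array 8 was left out (0.333, 1.33 and 1.5), and that of MDP without control array 10 or MDP array 6 (-1.5 and -0.167).

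67 mouse assays were silent on all control arrays, 68 on all Tri-DAP arrays and 68 on all MDP arrays. Of the 67 that were silent at rest, 51 were also silent after Tri-DAP and 56 after MDP, and the 45 were silent throughout. The other 22 were measured on at least 1 stimulated array, 16 on a Tri-DAP array and 11 on an MDP array. In the opposite direction, 17 assays that were silent after Tri-DAP and 12 that were silent after MDP were measured on at least 1 control array. Both ligands were compared with the same control arrays.

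Few of the assays silent at rest were measured on more than 1 array of a ligand. After Tri-DAP these were miR-297b-5p, miR-470, miR-654-3p and miR-873, each on 2 of 4 arrays, or 1.19% of the 335 assays. Their wells were late, from Ct 34.5 for miR-654-3p on array 5 to 36.2 for miR-873 on array 14. After MDP they were miR-129-5p and miR-142-5p, each on 2 arrays at 34.1 to 35.5, or 0.597%. The reverse pattern was measured on at least 2 control arrays and on no array of the ligand. It covered 7 assays for Tri-DAP (2.09%), namely miR-297c, miR-329, miR-338-3p, miR-363, miR-381, miR-486 and miR-598. For MDP it covered 4 (1.19%), miR-294, miR-329, miR-486 and miR-598. No assay was silent in 1 of the compared groups and measured on 3 or 4 arrays of the other. The counts rested on single arrays. The Tri-DAP count of 4 became 1 without Tri-DAP array 5 or 14 and 7 without control array 13. The MDP count of 2 became 0 without MDP array 6, 1 without MDP array 9 or 12, 4 without control array 4 or 7, and 5 without control array 13.

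A test of how often each assay was measured called no assay for either ligand. In Fisher's exact test, 0 of 335 assays (0.0%) had an unadjusted p under 0.05 for Tri-DAP and 0 (0.0%) for MDP, and every adjusted p was 1. The 335 include the 45 silent assays and the 166 measured on all 12 arrays. Their counts could not differ between groups, so the test could say nothing about them. With those assays in the adjustment, no outcome of the remaining ones could bring an adjusted p under 0.05. The adjusted p thus says nothing about a ligand effect. The smallest p for Tri-DAP was 0.143, for miR-136 (4 control and 1 Tri-DAP array), miR-208b (1 and 4) and miR-375 (1 and 4), all by Fisher's exact test. For MDP it was 0.429. The rule fixes the silent assays at 0 arrays in every group, so none of them could appear here. Only a change from 0 to 4 arrays or from 4 to 0 could pass at this size. Without control array 7, control array 13 or Tri-DAP array 8, 1 assay passed before adjustment for Tri-DAP, which was miR-375, miR-208b and miR-136 in turn (p = 0.0286, Fisher's exact test, adjusted p = 1.0).

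**Figure D4:**
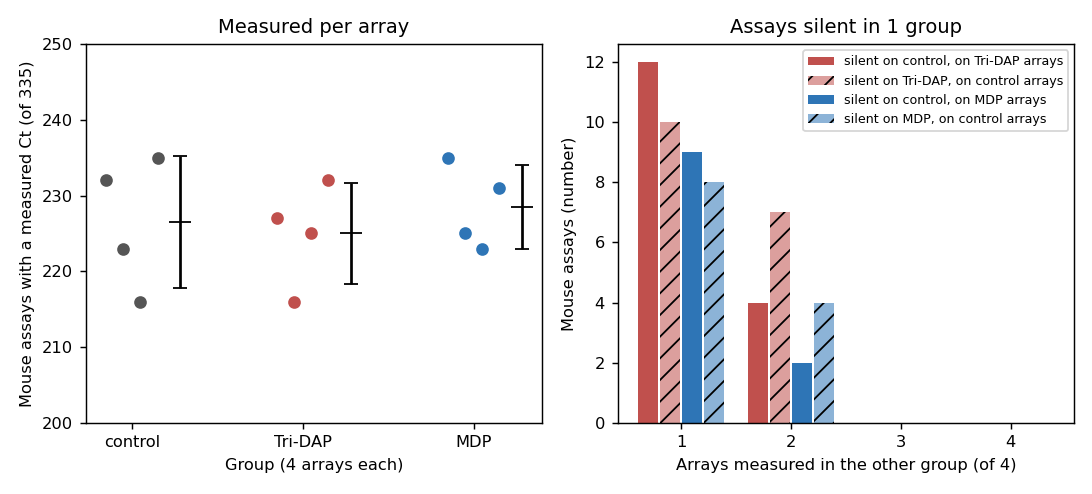
Left, mouse assays with a measured Ct on each array (points) with the group mean and SD (bars beside them, n = 4), on an axis that does not start at 0. Right, number of mouse assays that were silent in 1 group (filled bars, control; hatched bars, the ligand) by the number of arrays of the other group that measured them, where no bar stands at 3 or 4.

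The assays just outside the rule were the 17 measured on 1 array. 3 of these arrays were control, 10 Tri-DAP and 4 MDP arrays, with 5 assays on Tri-DAP array 8 and 4 on Tri-DAP array 5. 4 of the 17 wells came after Ct 35. They were those of miR-465a-3p, miR-493, miR-295 and miR-684, the last at 38.8. 9 lay between 25 and 35, among them miR-205, miR-105, miR-490, miR-133b, miR-499 and miR-875-3p.

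The other 4 were earlier than the mean U6 Ct of their own array. miR-615-5p, the arm opposite the silent miR-615-3p, had a Ct of 9.64 on Tri-DAP array 8 against a U6 mean of 21.6, and miR-675-5p had 11.96 on MDP array 15 against 19.7. miR-188-3p had 18.2 on control array 13 and miR-874 had 19.1 on Tri-DAP array 8. An assay that was undetermined on the other 11 arrays thus had, in its only measured well, a Ct earlier than that of the reference RNA. With wells earlier than the U6 mean also counted as undetermined, 49 assays were silent.

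**Figure D5:**
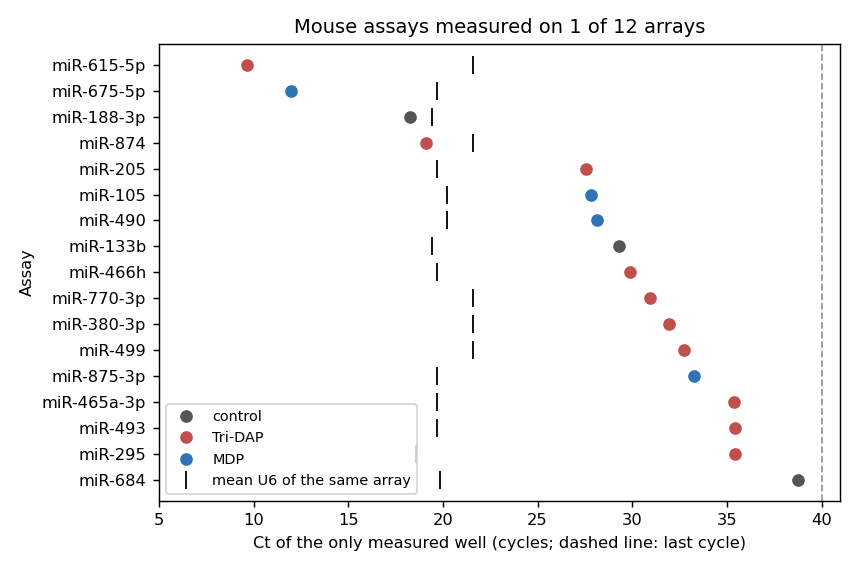
Ct of the only measured well (x axis, cycles, with the last cycle at 40 as a dashed line) of the 17 mouse assays measured on 1 array (y axis), colored by group, with the mean U6 Ct of the same array as a black tick. 4 wells lie to the left of their U6 tick. 10 of the 17 are on Tri-DAP arrays, with 5 on array 8 and 4 on array 5.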

How the data were processed

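TaqMan low-density arrays (rodent set A, 384 wells) of 12 samples were analyzed, grouped by the labels. Per the labels and methods, the authors ran 40 cycles with an automatic threshold. The deposited Ct values, in cycles, are not normalized and hold 40 where no threshold was reached. The deposited normalized values, on a log2 scale, are Ct minus the mean of the U6 wells. The deposited fold changes are the authors' comparisons and were not used. 41 unnamed columns of the Ct table were left out, 12 of which hold 1 number. PCR gives no read depth, and the number of arrays and the cycle limit set the precision.

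A well under 40 was counted as measured. Arrays were compared without pairing, by two-sided exact permutation tests with Benjamini-Hochberg adjustment over 2 comparisons. Each assay was compared by Fisher's exact test, also without pairing, adjusted over 335 (SciPy 1.17.1, pandas 2.3.3, Python 3.11.15). Fisher's test was tested on simulated data first. miRNA genes were matched to RefSeq by symbol, then by synonym, and grouped where the next gene lay within 10 kb. No coordinates are given, since the files name no build. The text names the silent assays and those measured on 1 array. It also names those silent at rest and measured on at least 2 arrays of a ligand. Relatives in the same list, cluster or seed and miR-126 are named too. The members and lists were chosen with earlier results of these data known. Alternatives were Ct limits of 35 and 32, 1 measured array allowed, rat assays added, other minimum numbers of ligand arrays and leaving out each array.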

Additional observations from a re-analysis of the deposited data

Results flagged for a closer look

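Within groups of 4 arrays, 18 sets of values were examined, of which chance alone is expected to mark about 1 in 20, or 0.9. They were the number of measured mouse assays and the Ct of both miR-126 arms, miR-367, miR-509-3p and miR-202-3p in each group. 2 sets had an array far from the others. miR-509-3p, the arm opposite the silent miR-509-5p, had a Ct of 27.5 on control array 13, while the remaining control arrays ranged from 31.7 to 32.4. miR-202-3p, the arm opposite the silent miR-202-5p, had 31.96 on MDP array 15, while the remaining MDP arrays ranged from 34.7 to 34.975.

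2 rat assays, which the comparisons did not use, were measured after a ligand and on no control array although the mouse assays of the same name were silent. Rat miR-505 was measured on 2 arrays, both MDP, at Ct 35.5, and rat miR-743b on 1 array, MDP array 6, at 32.8.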

How the results depend on the processing

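The number of silent assays was 45, and 54 with wells after Ct 35 counted as undetermined, 62 with 1 measured array allowed, 55 with rat assays added, and 45 to 50 with each array left out. It was 99 with a limit of Ct 32. At that limit lists without silent assays gained some, with 3 for blood cells, 2 for muscle and 1 each for the miR-106a to miR-363 cluster, which had it at Ct 35 too, and the Sfmbt2 group. The silent assays in lists numbered 30, then 36 at Ct 35 and 62 at Ct 32, and 30 to 34 without each array. With wells earlier than U6 also undetermined, an alternative chosen after seeing the data, the numbers were 49 and 30.

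The Tri-DAP difference in measured assays lay between -5.0 and 1.5 and the MDP difference between -1.5 and 4.83 with each array left out. The assays silent at rest and measured after Tri-DAP numbered 1 at Ct 35 and at Ct 32. They numbered 16 when 1 array was enough, 0 when 3 were needed, and 1 to 7 without each array. For MDP they numbered 1 at Ct 32, 11 and 0 under the same changes, and 0 to 5 without each array. Fisher's exact test called 1 assay at Ct 32 for Tri-DAP, miR-423-5p (4 control and 0 Tri-DAP arrays, adjusted p = 1.0), and 0 to 1 without each array, against 0 for MDP throughout. The causes were not tested. The labels give every array a number of its own and state no pairs. Taking consecutive numbers (control 4, Tri-DAP 5, MDP 6 and so on) as a replicate block was an alternative chosen after seeing the data. Deviations of consecutive arrays from their group means, over the 166 assays measured on all 12, correlated above 0.1 in 11 of 12 pairs (-0.11 to 0.7). This is a hint from the data. The paper describes 4 independent isolations for the array experiment, but no source used here states which arrays share 1. With this block the differences of -1.5 for Tri-DAP (fewer assays in 3 of 4 blocks) and 2.0 for MDP (more in 3 of 4) had exact permutation p = 0.75 and 0.5, where 4 blocks allow no p under 0.125.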
